A study of Mus musculus with 19 samples.

Results

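The carboxylesterase genes of mouse liver were examined for their response to the loss of the hnRNP RALY. The members are 10 rows of the deposited RNA-seq table, given by a fixed list of gene symbols (Ces1b, Ces1c, Ces1d, Ces1e, Ces1f, Ces1g, Ces2a, Ces2e, Ces3a and Ces3b), out of 24054 rows in all and 19 rows with a Ces symbol. The list was drawn up with earlier results of these data known and leaves out 3 tested Ces genes, which are described beside the members. All 10 passed the filter on low values that left 11580 genes for testing. RNA was sequenced from whole liver of 3 L-RalyKO and 3 control mice, all on a C57BL/6 background, chow-fed and homozygous for a Raly allele with LoxP sites around exons 3 and 4 (Raly flox/flox). L-RalyKO mice had received AAV8.TBG.Cre and controls AAV8.TBG.GFP 4 weeks before collection, so that both groups carried the floxed alleles and an AAV8 vector, and the labels call the controls wild type. The methods state male mice unless specified otherwise and give no age for these animals. TBG is a hepatocyte promoter, and other cells of the liver keep their Raly. In bulk tissue a smaller number of cells of a type and less RNA per cell cannot be told apart.

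Carboxylesterases are serine hydrolases of the endoplasmic reticulum that cleave esters, amides and thioesters. In liver they are known both for the breakdown of ester drugs and prodrugs and for the hydrolysis of neutral lipids. Mice carry many more copies than humans, in tandem arrays of close relatives. The Ces1 genes are the relatives of human CES1, the main hepatic drug esterase, and the Ces2 and Ces3 genes those of human CES2 and CES3. Some Ces1 proteins, Ces1d in particular, act on stored triglyceride that is used for VLDL assembly, and Ces1c is a form that the mouse liver secretes into plasma.

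Levels below are scaled RPM, meaning reads of a gene relative to the effective size of its library (read total times a scaling factor), as deposited, and are divided by gene length only where "per kilobase" is written. Libraries held 28302983 to 38052705 reads, so that 3 reads correspond to a level of 0.0789 to 0.105. The targeted gene Raly fell from 48.5 ± 1.67 in controls to 6.78 ± 0.546 in L-RalyKO livers (SD, n = 3 mice each, log2 fold change −2.67, adjusted p = 6.92e-07, limma). Control mouse 1 stood apart from the other controls, since a chi-square comparison of its read counts with theirs gave 84.5 and 101 per degree of freedom (about 1 for sampling noise alone), against 14.8 to 32.6 between other mice of a group. Calls of Ces genes that change without this mouse are given both ways.

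Of the 10 members, 2 were higher in L-RalyKO liver at an adjusted p under 0.05 (limma), Ces1b and Ces3b, where 6.55% of all genes tested were called and 3.36% were called higher. None of the 10 was called lower, where 3.19% of all genes were, and 3 members (Ces1b, Ces3b and Ces1e) had an unadjusted p under 0.05 by limma, against 22.7% of all genes tested. DESeq2, which called 9.36% of all genes, called 2 members higher and 1, Ces1e, lower. Both calls were of moderate size, with a 1.42-fold rise of Ces1b and a 1.33-fold rise of Ces3b. The remaining members, which include the most abundant transcripts Ces1c, Ces3a and Ces1d, had log2 fold changes between −0.27 and 0.13 that did not pass the test. The median log2 fold change of the members was 0.07, with 7 above 0 and 3 below, and the median of its absolute size was 0.13 against 0.10 over all genes tested.

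**Figure D1:**
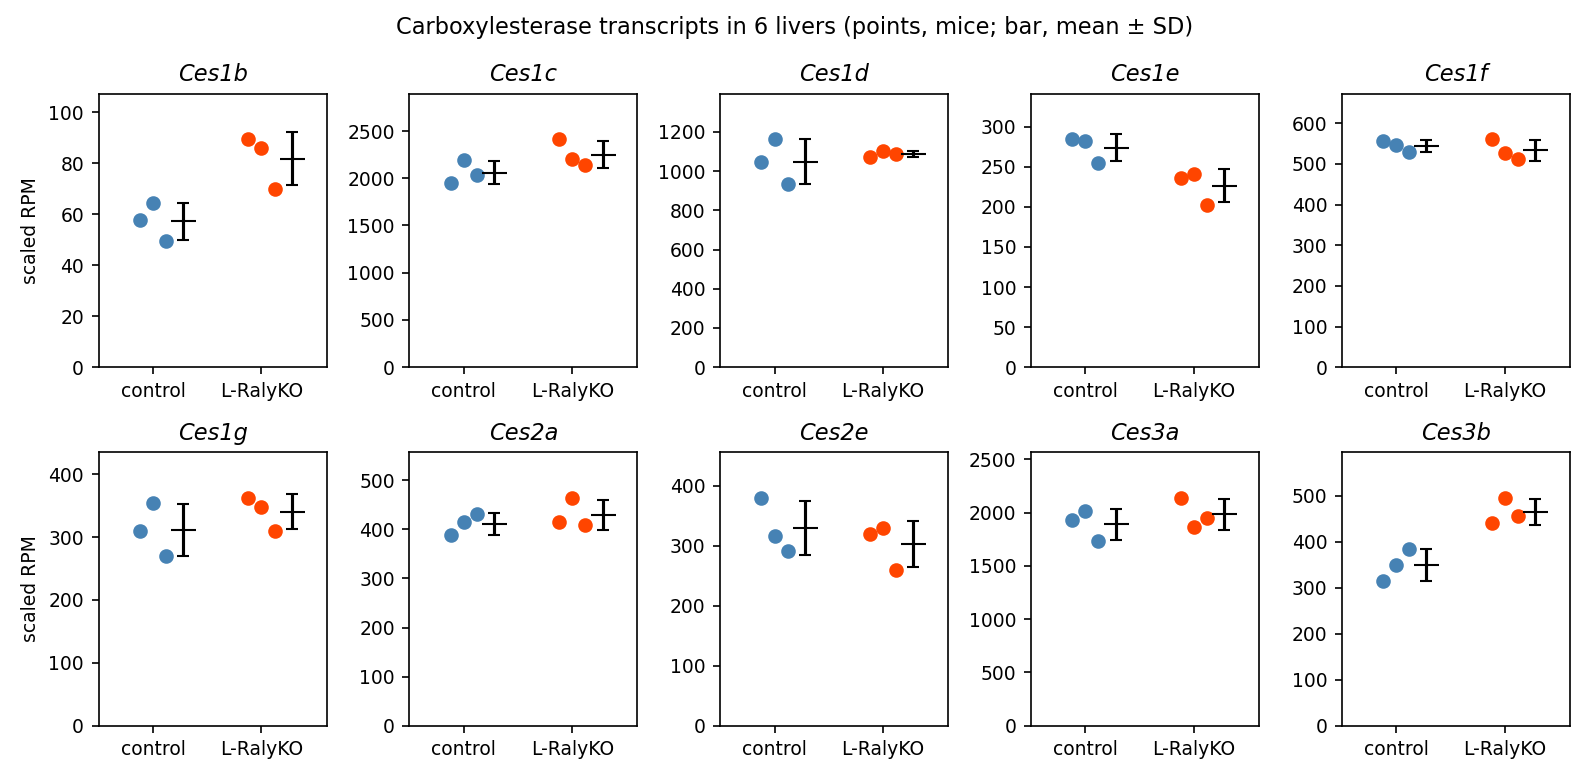
Level of each of the 10 carboxylesterase transcripts (y axis, scaled RPM, from 0) in each of 3 control and 3 L-RalyKO mice, with the mean and SD of each group as a bar. The groups do not overlap for 3 members (28.1% of all genes tested), Ces1b and Ces3b with L-RalyKO mice higher and Ces1e with L-RalyKO mice lower.

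The promoters of Ces1b, Ces1c and Ces3b are shown because Ces1b and Ces3b carry the rises and Ces1c is the neighbour whose start region is nearly the same as that of Ces1b. Sequences are from RefSeq on GRCm38.p6 (mm10) and run from 250 bases before to 50 bases after an annotated start site, 5′ to 3′ on the strand of the gene. The table used holds windows for 7 of the 10 members, and Ces1d, Ces1f and Ces3a have no entry. Capitals mark the letters CCAAT, read on either strand (ATTGG is the same word on the other strand), which is the core of the box bound by NFY, a factor that the study examined together with RALY. RefSeq gives Ces1b a pair of start sites, and the window shown is that of the more downstream one, at chr8:93079891-93080190 on the minus strand. The Ces1c window is chr8:93131234-93131533 on the minus strand and the Ces3b window chr8:105083505-105083804 on the plus strand.
Ces1b: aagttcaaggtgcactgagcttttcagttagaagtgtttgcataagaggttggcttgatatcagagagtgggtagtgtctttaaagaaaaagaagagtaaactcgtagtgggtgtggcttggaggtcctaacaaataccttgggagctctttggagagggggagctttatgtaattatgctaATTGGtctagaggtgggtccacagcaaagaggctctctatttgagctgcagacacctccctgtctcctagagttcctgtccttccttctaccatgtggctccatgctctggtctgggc
Ces1c: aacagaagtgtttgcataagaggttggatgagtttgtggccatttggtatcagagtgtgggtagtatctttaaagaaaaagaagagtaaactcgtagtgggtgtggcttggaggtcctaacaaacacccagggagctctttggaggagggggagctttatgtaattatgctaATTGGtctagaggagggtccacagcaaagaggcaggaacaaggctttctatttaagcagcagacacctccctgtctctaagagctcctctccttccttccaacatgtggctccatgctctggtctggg
Ces3b: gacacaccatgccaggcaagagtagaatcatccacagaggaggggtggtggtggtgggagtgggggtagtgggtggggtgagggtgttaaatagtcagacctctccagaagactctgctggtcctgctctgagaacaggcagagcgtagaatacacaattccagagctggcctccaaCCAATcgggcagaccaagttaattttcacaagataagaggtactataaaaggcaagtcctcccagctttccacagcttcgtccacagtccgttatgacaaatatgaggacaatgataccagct

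In a local alignment of the Ces1b and Ces1c windows, 253 of 270 aligned bases were the same (93.7%), and no other pair of members aligned over more than 33 bases. The word CCAAT lies at −68 from the start site shown for Ces1b, which is 9 bases after its other start site, at −78 in Ces1c and at −73 in Ces3b. It was found in at least 1 window of 5 of the 7 members, the other two being Ces1g and Ces2a, and was absent from the windows of Ces1e and Ces2e. Of 27025 promoter windows of the same length, 37.9% hold it. The TATA word TATAAA (either strand) was found in 2 members, Ces1g and Ces3b, at −26 and −30, and in 14.2% of all windows. The word AGGTCA, the core of nuclear receptor sites, was found in 1 member, Ces2a, and in 16.0% of all windows. The word CAAAGTCCA, a form of the HNF4 site, was found in 0 of the 7 members and in 0.477% of all windows. Word matches describe these windows and are not evidence of binding.

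The Ces genes stand in 2 runs on chromosome 8 of NCBIM37 (mm9), the build the study used, by the GENCODE vM1 annotation. The first run, from 95544113 to 96059607, holds the Ces1 genes and Ces5a on the minus strand. Within it Ces1b (ENSMUSG00000078964.1) spans 95580626 to 95603916 with 14 exons, and Ces1c (ENSMUSG00000057400.6) follows from 95622914 to 95655182. The second run, from 107257903 to 107674009 on the plus strand, holds the Ces2 genes, Ces3a (ENSMUSG00000069922.5, 107572499 to 107582314), Ces3b (ENSMUSG00000062181.7, 107607653 to 107617829 with 13 exons) and Ces4a. Of the 10867 tested genes (of 11580) matched to that annotation by symbol, none other than a Ces gene lies inside either run. The called genes do not sit together, since Ces1b and Ces3b are in different runs and the tested genes beside them within the runs (Ces1c, Ces3a and Ces4a) did not pass the test.

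**Figure D2:**
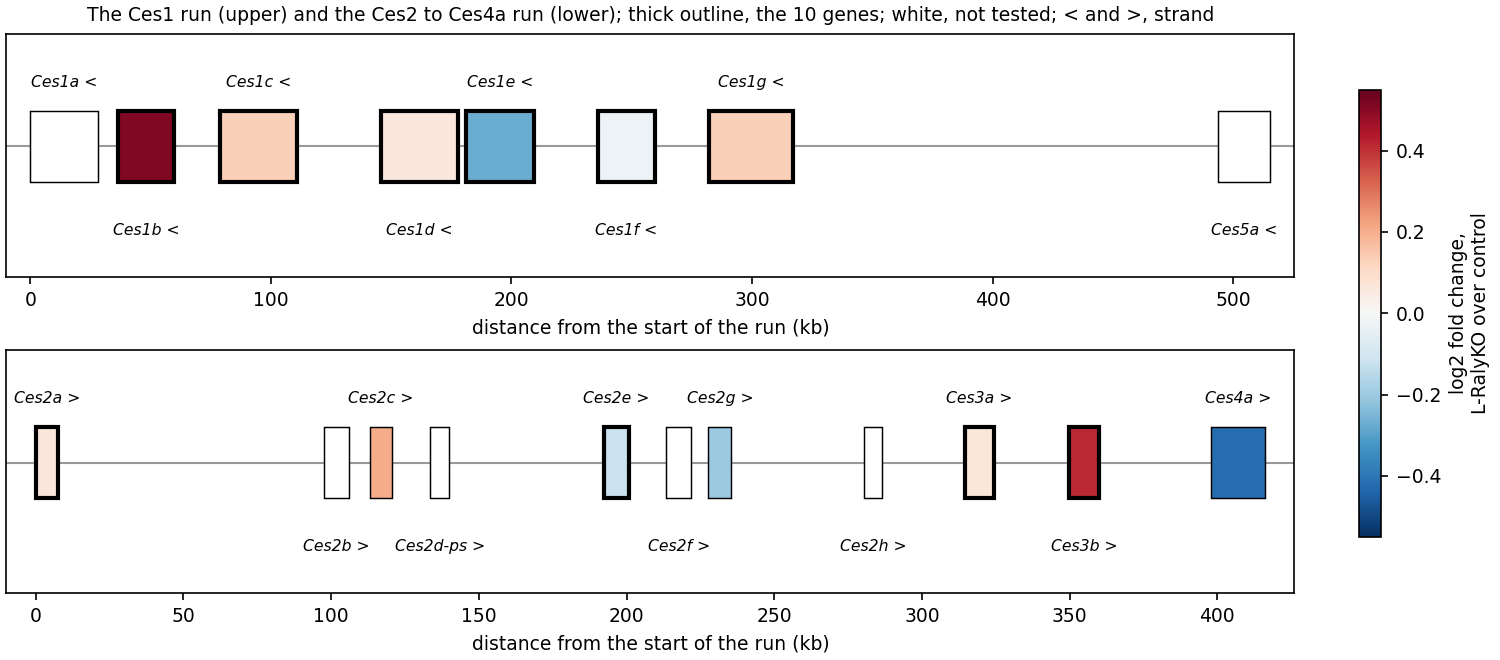
Map of the 2 carboxylesterase runs to scale (x axis, distance in kb from the start of each run), with each box a gene coloured by its log2 fold change in L-RalyKO over control liver. Ces1b in the upper run and Ces3b in the lower run are the darkest red, at 0.51 and 0.41, while Ces1c and Ces3a beside them lie at 0.13 and 0.07.

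Among the Ces1 genes, Ces1b stood at 89.4, 85.9 and 69.8 in the L-RalyKO livers, compared with 57.5, 64.3 and 49.5 in the control livers. Every L-RalyKO mouse lay above every control, as for 14.4% of all genes tested. The mean level was 81.7 ± 10.5 in L-RalyKO against 57.1 ± 7.43 in control liver (SD, n = 3 each), a log2 fold change of 0.51 (standard error 0.11, 95% interval 0.25 to 0.77, adjusted p = 0.0351, limma). The two-sided exact permutation test gave p = 0.1, the smallest that 3 mice against 3 allow. The call of Ces1b is close to its threshold. It was kept in 9 of 16 alternative settings, over which its adjusted p ran from 0.000169 to 0.114 and its log2 fold change from 0.41 to 0.62. It was lost in edgeR's quasi-likelihood test (adjusted p = 0.0518), in limma without an intensity trend (0.0676) or with no filter on low values (0.07), and without control mouse 1 (0.0939), control mouse 3 (0.0629), L-RalyKO mouse 1 (0.114) or L-RalyKO mouse 2 (0.107), all by limma.

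Ces1c, the plasma carboxylesterase gene and next in the array, was measured at 2414, 2204 and 2136 in L-RalyKO livers, compared with 1946, 2190 and 2039 in control livers. The groups overlapped, and the log2 fold change was 0.13 (95% interval −0.04 to 0.30, adjusted p = 0.346, limma). Because Ces1c is far more abundant than Ces1b and their coding sequences are 88.8% identical, reads of the one could be counted for the other. Of the 50-base words of the Ces1b transcript 9.92% also occur in Ces1c, and of its 150-base words, the read length, 0% occur in any other transcript. Ces1b made up 3.70%, 3.90% and 3.27% of the Ces1c level in the L-RalyKO mice and 2.96%, 2.94% and 2.43% in the controls. This ratio was higher in every L-RalyKO mouse than in every control (3.62 ± 0.323% against 2.77 ± 0.301%, SD, n = 3 each, two-sided exact permutation test p = 0.1). Ces1b is its numerator, so the ratio in part restates the difference in Ces1b. Whether reads were exchanged between the genes was not tested.

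Ces1e, also known as egasyn, anchors β-glucuronidase in the endoplasmic reticulum. It was the only member with all L-RalyKO mice below all controls, which was so for 13.7% of genes tested, with values of 236, 241 and 203 against 285, 282 and 254. The log2 fold change of −0.27, with a standard error of 0.076 and a 95% interval from −0.45 to −0.10, missed the threshold (adjusted p = 0.0698, limma). It was called in 4 of 16 alternative settings, with adjusted p from 0.0123 to 0.192, and DESeq2 (0.0123), total count scaling (0.0495, limma) and leaving out control mouse 3 (0.0483, limma) were among them. Gusb, which encodes the β-glucuronidase that Ces1e holds, lay at 30.2, 31.9 and 30.3 in L-RalyKO livers, where controls had 31.1, 28.8 and 29.3 (log2 fold change 0.05, adjusted p = 0.636, limma).

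The lipid-hydrolysing Ces1 genes did not pass the test. Ces1d, which encodes triacylglycerol hydrolase, gave 1071, 1105 and 1085 in L-RalyKO livers, compared with 1047, 1163 and 936 in control livers, with all L-RalyKO mice inside the control range. Its log2 fold change of 0.06 had a 95% interval of −0.12 to 0.24 (adjusted p = 0.724, limma), and it became −0.02 without control mouse 3. Ces1d is also a gene of adipose tissue. Of 7 adipocyte markers, Lep and Retn were at 0 in all L-RalyKO mice and Adipoq at no more than 0.119 in any mouse. The summed level of the list was 10.7 to 12.2 in L-RalyKO and 15.4 to 59.5 in control liver. The 3 tested all had a log2 fold change below 0 (median −1.41), and 2 did not overlap between the groups (28.1% of all genes). Cidec is also on the list of neutral lipid genes below, so these markers are not particular to adipocytes. Of the 3 tested, 1 (Cfd) was called lower, as were 3.19% of all genes (log2 fold change −2.10, adjusted p = 0.0318, limma, called in 9 of 15 alternatives). Over these alternatives the log2 fold change of Cfd ran from −3.96 to −1.52, the latter without control mouse 1. That mouse had the highest control values of Cfd (12.6 against 2.74 and 3.46) and Cidec (38.8 against 7.54 and 14.1). It also had the only reads of Lep and Retn. The part of adipocyte RNA in the Ces1d values was not tested.

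Ces1f, which encodes a second triacylglycerol hydrolase, had the smallest log2 fold change of the 10, at −0.03 (95% interval −0.15 to 0.09, adjusted p = 0.787, limma). Its mean of 533 ± 25.2 in L-RalyKO livers lay beside one of 544 ± 14.1 in control livers (SD, n = 3 each). Ces1g, whose protein also acts on triglyceride in hepatocytes, ranged from 310.0 to 363 in L-RalyKO and from 270.4 to 354 in control mice (log2 fold change 0.13, 95% interval −0.09 to 0.36, adjusted p = 0.472, limma). The groups overlapped for both genes. The 6 Ces1 members together came to 4520.4 ± 210.0 in L-RalyKO and 4294 ± 272 in control liver.

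Ces2 enzymes cleave esters with a small acyl and a large alcohol group, such as several prodrugs. Ces2a lay at 415, 465 and 409.8 in L-RalyKO livers and at 388, 414 and 431 in control livers, which overlap (log2 fold change 0.06, 95% interval −0.09 to 0.21, adjusted p = 0.624, limma, and 0.02 without control mouse 1). Ces2e had the widest spread of the members in controls (coefficient of variation 13.9%), with 319, 329 and 259 in L-RalyKO livers against 380.1, 317 and 291. The L-RalyKO mean of 302 ± 38.0 and the control mean of 329 ± 45.7 (SD, n = 3 each) differed by less than the spread between mice (log2 fold change −0.12, 95% interval −0.38 to 0.14, adjusted p = 0.581, limma). Without control mouse 1, and likewise without L-RalyKO mouse 3, the log2 fold change of Ces2e was −0.01.

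Ces3a and Ces3b are the closest pair, with coding sequences that are 95.3% identical, and only Ces3b was called. Ces3b reached 440.3, 496 and 456 in L-RalyKO livers, compared with 315, 349.5 and 383 in control livers. The groups did not overlap, and the mean of 464 ± 28.5 against 349 ± 34.1 (SD, n = 3 each) corresponds to a log2 fold change of 0.41 (standard error 0.078, 95% interval 0.24 to 0.59, adjusted p = 0.0187, limma, two-sided exact permutation test p = 0.1). The call was kept in 13 of 16 alternative settings, with adjusted p from 3.45e-05 to 0.0628, among them edgeR (0.0122), DESeq2 (3.45e-05) and the fit without control mouse 1 (0.0495, limma). It was narrowly lost without control mouse 2 (0.0523), L-RalyKO mouse 2 (0.0628) or L-RalyKO mouse 3 (0.0501).

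Ces3a was found at 2139.8, 1860.1 and 1946 in L-RalyKO livers and at 1933, 2011 and 1730.1 in control livers, with no separation of the groups (log2 fold change 0.07, 95% interval −0.12 to 0.25, adjusted p = 0.674, limma). The authors' counting could have split reads that this pair shares. Of the 50-base words of Ces3b 26.1% occur in Ces3a, and of its 150-base words, the read length, 2.0%. Whether reads of this pair were exchanged was not tested, which leaves the values of both genes uncertain to that degree. Ces3b made up 17.1%, 21.0% and 19.0% of the reads of the pair in the L-RalyKO mice and 14.0%, 14.8% and 18.1% in the controls. This share overlapped between the groups (19.0 ± 1.99% against 15.6 ± 2.19%, SD, n = 3 each, two-sided exact permutation test p = 0.2). The pair together came to 2446 ± 118 in L-RalyKO and 2240.5 ± 124 in control liver.

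**Figure D3:**
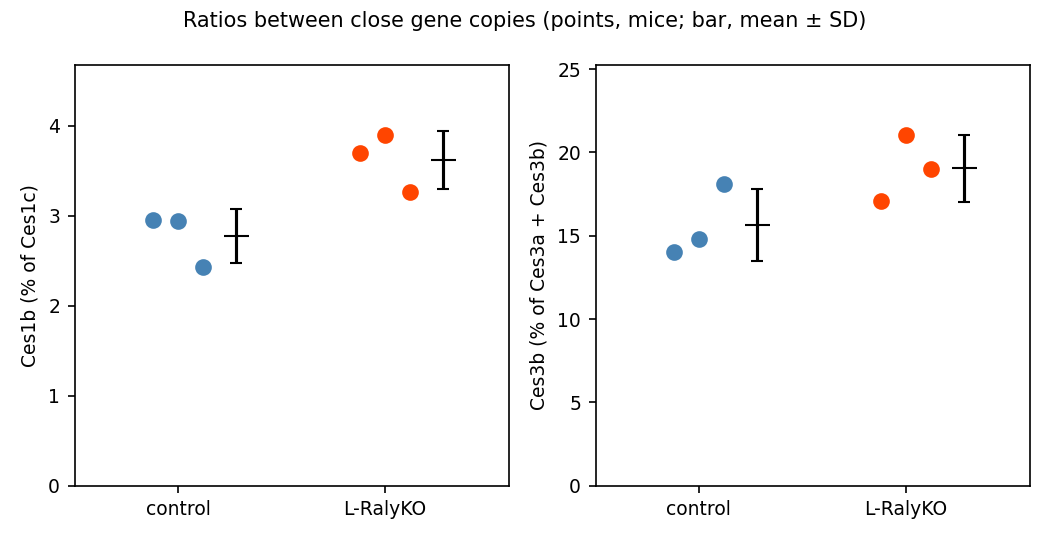
Ces1b as a percent of Ces1c (left) and Ces3b as a percent of the Ces3a and Ces3b reads (right) in each mouse, with the mean and SD of each group as a bar. The left ratio does not overlap between the groups (3.27% to 3.90% in L-RalyKO, 2.43% to 2.96% in control), and the right one does, since control mouse 3, at 18.1%, lies above L-RalyKO mouse 1, at 17.1%.

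Sequence kinship within the family was strong inside and weak between subfamilies. Coding sequences of the Ces1 members were 72.0% to 88.8% identical, those of Ces2a and Ces2e 83.4%, and those of genes of different subfamilies 54.7% to 59.3%. Shared 50-base words of the other members were few, from 0.533% of Ces1f to 3.36% of Ces2e with any other gene, apart from 13.4% of Ces1c and 30.9% of Ces3a.

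The plot of log2 fold changes sets the 10 members beside the other Ces genes. The table lists 9 further Ces rows, of which Ces2c, Ces2g and Ces4a were tested. Of these 0 were called by limma (6.55% of all genes), edgeR (783 of all 11580 genes) or DESeq2 (9.36% of all genes). All 3 had an unadjusted p under 0.05 by limma (22.7% of all genes) and no overlap between the groups (28.1% of all genes). Ces2c, which encodes a hepatic triglyceride hydrolase of the Ces2 group, was at 103, 90.1 and 93.4 in L-RalyKO and at 89.5, 86.3 and 73.2 in control mice, without overlap (log2 fold change 0.20, adjusted p = 0.189, limma). Ces2g was at 51.8, 51.6 and 49.1 against 62.8, 61.9 and 52.0, again without overlap but in the other direction (log2 fold change −0.20, adjusted p = 0.149, limma, and 0.0205 without control mouse 3). Ces4a was low, at 0.873 to 1.21 in L-RalyKO and 1.22 to 2.22 in control liver (log2 fold change −0.42, adjusted p = 0.15, limma). Its log2 fold change ran from −0.75 to −0.30 over 15 alternative settings. Ces1a, Ces2b, Ces2d-ps and Ces2h were below the filter on low values, with no level above 1.31, and Ces2f and Ces5a had no read in any mouse, which allows values of up to 0.105 in the shallowest library (counting error only).

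**Figure D4:**
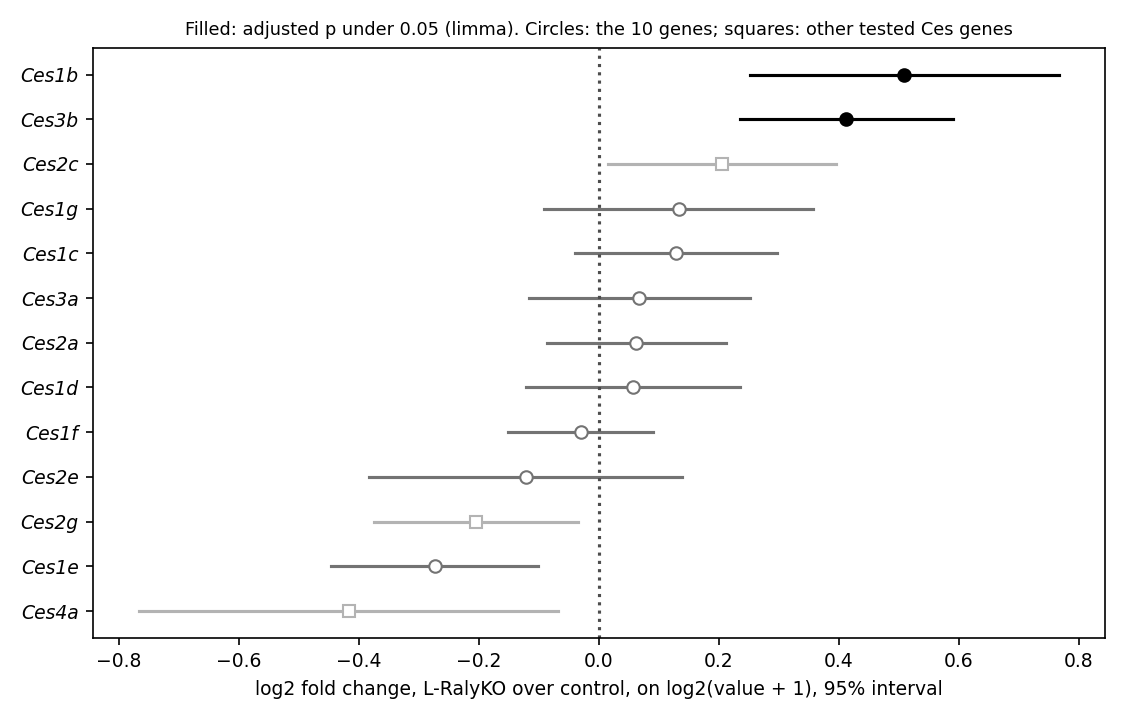
Log2 fold change (x axis, L-RalyKO over control, on the log2(value + 1) scale) with its 95% interval from limma for the 13 tested Ces genes, with the 10 members as circles and others as squares. Only Ces1b and Ces3b are filled, with an adjusted p under 0.05, and the intervals of 7 of the members include 0.

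Levels of different genes were compared per kilobase of the longest annotated transcript. In controls the order was Ces1c (1126 ± 67.2), Ces3a (923 ± 70.8), Ces1d (523 ± 56.6), Ces1f (283 ± 7.31), Ces2a (209.8 ± 11.0), Ces3b (145 ± 14.2), Ces1e (132 ± 8.10), Ces1g (130.5 ± 17.5), Ces2e (122 ± 16.9) and Ces1b (29.1 ± 3.78), each as scaled RPM per kilobase (SD, n = 3). The ranges of the 3 control mice did not overlap between neighbours from Ces1c down to Ces3b, whereas those of Ces3b and Ces1e, of Ces1e and Ces1g, and of Ces1g and Ces2e did. Ces2e was 4.20 times Ces1b, without overlap. Ces1b, which rose, is the scarcest of the members by this measure. Per kilobase, Ces1c ranked 56th and Ces1b 1671st in controls among 10867 tested genes with an annotated length. With the length of all annotated exons Ces3a (923) came before Ces1c (886), and Ces2a (175) before Ces1f (166).

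**Figure D5:**
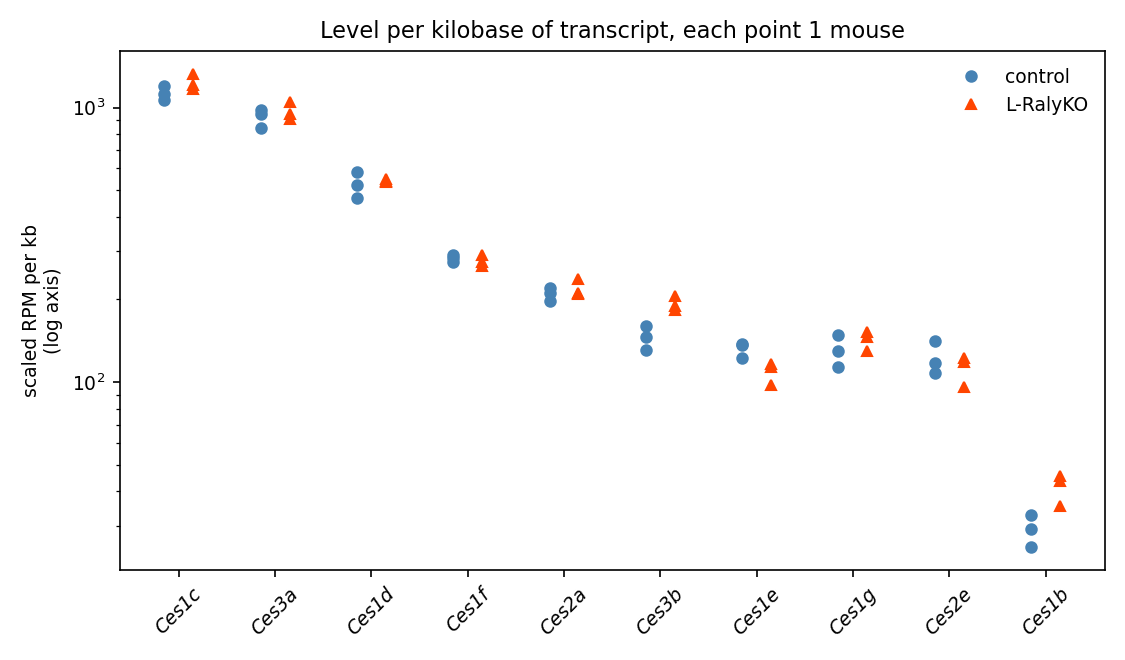
Level per kilobase of the longest transcript (y axis, scaled RPM per kb, log axis) for the 10 members in order of their control mean, with each point a mouse. The members span from 29.1 for Ces1b to 1126 for Ces1c in controls, and the 4 genes from Ces3b to Ces2e lie close together.

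All 10 members together took up 0.689% to 0.782% of the reads of a library, and Ces1c, Ces3a and Ces1d held 69.1 ± 1.42% of their sum in L-RalyKO and 68.7 ± 0.923% in control liver. The sum was 7699 ± 333 in L-RalyKO and 7275 ± 391 in control mice (SD, n = 3 each), a mean higher by 5.82%, with overlapping groups. The called genes Ces1b and Ces3b are minor members of this sum.

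Liver markers were examined for the same libraries. All 8 hepatocyte markers had a log2 fold change above 0. Of them 1, Hnf4a, was called by limma (6.55% of all genes) and edgeR (783 of all 11580 genes). DESeq2 called 3 (9.36% of all genes) and 4 had an unadjusted p under 0.05 by limma (22.7% of all genes). Of the 8 markers, 3 did not overlap between the groups, as for 28.1% of all genes. Their summed level was 95544 to 96718 in L-RalyKO and 84937 to 94326 in control mice and did not overlap. Alb is the largest part of this sum and itself overlapped between the groups (log2 fold change 0.05, adjusted p = 0.889, limma). The sum differed in the same direction as the rises of Ces1b and Ces3b, and its part in them was not tested. None of the 7 Kupffer cell, 7 endothelial, 7 stellate cell, 3 cholangiocyte and 1 lymphocyte markers tested was called by limma, where 6.55% of all genes were. By limma 1 stellate cell and 1 cholangiocyte marker had an unadjusted p under 0.05 (22.7% of all genes). Of these markers edgeR called 0 and DESeq2 1, a cholangiocyte marker. The summed levels of each list overlapped between the groups (161 to 209 against 156 to 234 for Kupffer cells, 162 to 205 against 186 to 194 for endothelium, 211 to 278 against 220 to 245 for stellate cells, 32.2 to 41.0 against 32.5 to 34.7 for cholangiocytes and 6.38 to 8.68 against 7.87 to 10.2 for lymphocytes). Ces2e is known from intestine as well. Of the enterocyte markers Alpi and Sis were at 0 in all mice and Vil1 and Lct at no more than 0.263, with a summed level of 215 to 318 in L-RalyKO and 227 to 254 in control mice that came nearly all from Fabp2 and Apoa4, which liver also makes. Pancreatic acinar markers summed to 6.41 to 11.6 against 6.68 to 7.22, with Prss1, Cpa1, Pnlip and Amy2b at 0.

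Nuclear receptors and liver factors that are known to act on carboxylesterase genes were read from a list of 19, all of them tested, of which 2 were called higher and 2 lower by limma, where 6.55% of all genes were called. Of the list, edgeR called 6 (783 of all 11580 genes) and DESeq2 6 (9.36% of all genes), and 9 had an unadjusted p under 0.05 by limma, against 22.7% of all genes. Nr1i2, which encodes the xenobiotic receptor PXR, was at 116, 119 and 119 in L-RalyKO and at 97.2, 89.6 and 94.9 in control mice, with no overlap. Called in all 16 alternative settings, it rose by 0.33 on the log2 scale (standard error 0.048, adjusted p = 0.00725, limma). Hnf4a, the gene of a central hepatocyte transcription factor, rose from 520, 542 and 680 in controls to 899.6, 809 and 829 in L-RalyKO mice (log2 fold change 0.55, adjusted p = 0.0155, limma, and 0.0509 without control mouse 1, 0.051 without control mouse 2 and 0.0617 without L-RalyKO mouse 1). Nr1i3, which encodes the related drug receptor CAR, was at 161, 164 and 163 against 159.6, 177 and 157, and was not called (log2 fold change −0.01, adjusted p = 0.916, limma).

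The factors called lower were Stat5b and Srebf1. Stat5b, which carries the growth hormone signal, was at 48.4, 53.1 and 46.4 in L-RalyKO and at 57.5, 63.3 and 69.3 in control mice (log2 fold change −0.35, adjusted p = 0.0346, limma). It was called in 10 of 16 alternative settings and lost, among others, without control mouse 2 (0.0824), control mouse 3 (0.0629), L-RalyKO mouse 1 (0.11) or L-RalyKO mouse 3 (0.099). Srebf1, the lipogenic SREBP gene, was at 191, 245 and 166 against 323, 299 and 312 (log2 fold change −0.65, adjusted p = 0.0173, limma, 0.063 without control mouse 1 and 0.0649 without L-RalyKO mouse 1). The largest change of this list by size was that of Onecut1, at 25.5, 38.2 and 20.4 in L-RalyKO and 10.0, 6.10 and 25.0 in control mice, which overlap and did not pass the test (log2 fold change 1.15, adjusted p = 0.144, limma). The median log2 fold change of the list was 0.01.

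Other enzymes and guards of neutral lipid, the substrate that Ces1d and Ces1f share with them, were read from a list. Of its 25 genes 24 were tested, 1 was called higher and 1 lower by limma (6.55% of all genes tested were called), and the median log2 fold change was −0.02. DESeq2 called 3 (9.36% of all genes) and edgeR 1 of them, 10 had an unadjusted p under 0.05 by limma (22.7% of all genes), and 9 did not overlap between the groups (28.1% of all genes). Lpl, which encodes lipoprotein lipase, was at 22.1, 31.1 and 22.7 in L-RalyKO and at 7.66, 13.5 and 15.6 in control mice. Its log2 fold change of 1.02 had an adjusted p of 0.0356 by limma and was kept in 9 of 16 alternatives (0.0198 to 0.131, the highest of them by edgeR, and lost without control mouse 2 or any L-RalyKO mouse, at 0.0575 and 0.0705 to 0.107). Ddhd2, which encodes a triglyceride and phospholipid hydrolase, was at 45.6, 47.0 and 47.5 against 61.3, 59.4 and 55.8 (log2 fold change −0.33, adjusted p = 0.0104, limma), called in all 16. Among the genes without overlap were Nceh1, Pnpla6 and Mttp (log2 fold changes −0.14, 0.19 and −0.14) and the lipid droplet genes Plin2, Plin5 and Cidec (−0.50, 0.42 and −1.41), none of them called by limma. Control mouse 1 was the highest of the controls for Plin2 (727 against 525 and 422) and Cidec (38.8 against 7.54 and 14.1). The adipose triglyceride lipase gene Pnpla2, the hepatic lipase gene Lipc and the esterase gene Aadac, a serine hydrolase of the endoplasmic reticulum like the carboxylesterases, had log2 fold changes of 0.16, −0.02 and −0.02 and were not called. The largest by size was Cidea, a lipid droplet protein gene at 0 to 0.087 in L-RalyKO and 14.1, 0.526 and 0.892 in control mice, where control mouse 1 is far above the other mice (log2 fold change −1.78, adjusted p = 0.192, limma).

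Other drug-metabolising hydrolases were read from a list of 19 esterases, lactonases, amidases and epoxide hydrolases, all tested. Of these 0 were called in either direction by limma (6.55% of all genes), edgeR (783 of all 11580 genes) or DESeq2 (9.36% of all genes). By limma 3 had an unadjusted p under 0.05, against 22.7% of all genes, and the median log2 fold change was 0.01. The paraoxonase gene Pon1 was at 766, 693 and 629.6 in L-RalyKO and at 756, 758 and 627 in control mice. The butyrylcholinesterase gene Bche was at 140.5, 136 and 133 against 135, 133 and 138. The largest change of this list was that of Acot2, a mitochondrial thioesterase gene (log2 fold change −0.25, adjusted p = 0.155, limma).

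Genes that flank the runs were read as well. Among the nearest tested genes with a position in the annotation are Lpcat2, 101 kb before the Ces1 run (log2 fold change −0.44, adjusted p = 0.131, limma), Fam96b, 92.0 kb before the second run (0.04, 0.806) and Cbfb, 20.6 kb after it (0.30, adjusted p = 0.0493). Cbfb, which lies beyond Ces4a and encodes a subunit of the core-binding transcription factor, was called, but was kept in only 7 of 16 alternative settings (adjusted p from 0.0253 to 0.147). It lost the call without control mouse 1 (0.128), control mouse 2 (0.113) or any of the L-RalyKO mice (from 0.0865 to 0.147).

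The genes whose levels over the 6 mice were most like those of Ces1b were Slc27a5 (Pearson r of 0.994), Marc2 (0.994) and Tapbpl (0.987), of which Slc27a5 encodes the bile acid CoA ligase of hepatocytes. Those most like Ces3b were Zcchc2 (0.994), Bcl7a and Nrbp2 (0.991 each). Such correlations describe 6 libraries that share the group difference, and the genes were picked as the highest of all those tested. Slc27a5 itself did not pass the test (log2 fold change 0.11, adjusted p = 0.277, limma), while Zcchc2 and Nrbp2 did (0.28 and 0.29, adjusted p = 0.0414 and 0.0433, limma). Within the groups, deviations of Ces1b from the group mean were most like those of Ces1g (r of 0.97) and Ces1e (0.91). Those of Ces3b were most like Ces2a (0.90) and ran most against Ces3a (−0.75). These pairs were picked as the extremes among the members, and deviations from means of 3 mice leave few independent values. Whether the genes vary together was not tested.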

How the data were processed

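Liver RNA-seq of 3 L-RalyKO and 3 control mice was analysed, and columns were matched to mice by virus and replicate number. The study states a larger group size for this experiment, and mice beyond these 6 were not analysed here. ATAC-seq and ChIP-seq were not analysed here. The study made stranded libraries read as pairs of 150 bases and names TopHat 2.0.2 with mm9 and, for FPKM, Cufflinks 2.0.2 (also named in the submitters' processing notes). What the authors deposited is a scaled signal, each gene's reads over the effective size of the library. How reads were counted, and whether strand was used, is not given in the sources used here. In each column 100% of values were whole multiples of a constant step, the worth of 1 read (tolerance of 0.001 reads), so reads were recovered (edgeR on them called 392 genes higher and 391 lower), and the scaling factors equal edgeR's TMM factors.

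The test was limma 3.58.1 (R 4.3.3, intensity trend) on log2(value + 1), run over the 11580 genes whose mean level reached 1 and Benjamini-Hochberg adjusted over all of them. Fold changes on that scale understate changes of low genes. The test was checked on simulated counts first. The design was written for either unit and the form for normalized values was used. Named genes are all Ces rows, Raly, genes called or with the largest change in each list, the nearest tested flanking genes (1 is not reported here) and the 3 genes most correlated with each of the 2 members that changed most. Genes named beyond this rule (Nr1i3, Pnpla2, Lipc, Aadac, Gusb, Pon1, Bche, P4hb, Kdelr1, Kdelr2, Lrat, Rbp4, Plin2, Plin5, Cidec, Nceh1, Pnpla6, Mttp and single cell type markers) were picked after values were seen. Members and lists were chosen with earlier results of these data known. Alternatives were edgeR 4.0.16, DESeq2 1.42.0, limma voom, other scalings, filters and pseudocount, a replicate block and leaving out each mouse. Transcript lengths, words and coordinates come from GENCODE vM1 on NCBIM37. Replicate numbers in the labels are taken as separate mice. The p-values set the group difference against the spread between these samples, which limma estimates with the help of all genes tested.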

Additional observations from a re-analysis of the deposited data

How the results depend on the processing

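All alternatives were listed with the design. The number of members called higher, 2, became 1 with edgeR's quasi-likelihood test, without an intensity trend and with no filter on low values, and 0 to 1 when a mouse was left out. The number called lower, 0, became 1 (Ces1e) with DESeq2, with total count scaling and with the replicate block, and 0 to 1 when a mouse was left out. The cause was not tested. The sign of Ces1d turned without control replicate 3 (log2 fold change −0.0219, and −0.0219 to 0.134 over the mice left out), and those of the other 9 members held in all 16 settings. Scalings moved the median of all genes by at most 0.03 (log2). Deviations of same-numbered mice were not related over all genes (correlations of 0.07, −0.02 and 0.02). Deviations from means of 3 mice cannot decide whether the numbers pair the mice, and the labels name no pairing. The replicate block gave 704 called genes against 758, with an adjusted p of 0.0243 for Ces1e and 0.00733 for Ces1b (limma). Over all genes, 389 higher and 369 lower calls became 324 and 469 with total count scaling, 254 and 230 with no filter, and 332 to 813 in all when a mouse was left out (369 without control replicate 1, 437 without L-RalyKO replicate 2 and 491 without L-RalyKO replicate 3). Every member had at least 1830 reads in every mouse.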

Other observations

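Carboxylesterases that stay in the endoplasmic reticulum are held there by a C-terminal retention signal. Genes of the retention receptors and of foldases and chaperones of that compartment were read from a list of 11. Of these 10 were tested, 8 had a log2 fold change above 0 and 2 below, and 0 were called by limma, edgeR or DESeq2 (1 at an unadjusted p under 0.05 by limma), where limma called 6.55% and DESeq2 9.36% of all genes. P4hb, the gene of protein disulfide isomerase, had a log2 difference of −0.04 ( adjusted p = 0.686, limma), and the retention receptor genes Kdelr1 and Kdelr2 had values of 0.01 and 0.06. The largest by size was that of Hspa5, at 920.2, 498 and 893 in L-RalyKO and 657, 636 and 594 in control mice, where L-RalyKO mouse 2 lies below all controls (log2 fold change 0.24, adjusted p = 0.535, limma).

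Ces1 proteins also cleave retinyl esters. Of 9 genes that make, carry or cleave such esters 6 were tested, and Lpl alone was called by limma, higher, a call kept in 9 of 16 alternatives, where 6.55% of all genes were called. Lrat, which encodes the enzyme that esterifies retinol in stellate cells, had values of 11.3, 10.0 and 17.0 in L-RalyKO and of 18.9, 21.2 and 12.5 in control mice, which overlap (log2 fold change −0.43, adjusted p = 0.279, limma), and Rbp4, the plasma retinol carrier gene, one of 0.10 (adjusted p = 0.381, limma).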
